A study of Mus musculus with 96 samples.

Results

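The 34 genes described here code for the enzymes and carriers that take glucose through glycolysis, pass pyruvate and lactate across membranes, and lay down or break down glycogen. They were chosen by name, from their known roles and with earlier results of these data known, among the 55376 genes of a count table of mouse ventricle. All 34 passed the filter on low counts that left 15629 genes for testing. Their levels were followed in 96 libraries from mice of the genotype iCSBmal1 KO, in which the clock gene Bmal1 (Arntl in the table) can be deleted in cardiomyocytes by giving tamoxifen. The groups were tamoxifen females, vehicle females, tamoxifen males and vehicle males, with 24 libraries each, taken every 4 h from ct 18 to ct 62 (circadian time, in hours) with 2 libraries per group and time. All 4 groups carry the same genotype, and no group without the inducible deletion received tamoxifen, so the effects of the drug and of the loss of Bmal1 cannot be told apart. The numbers in the library titles run in separate blocks for vehicle males and vehicle females, whereas tamoxifen females and males share a further block. The labels do not say whether these blocks are batches. Comparisons of tamoxifen with vehicle, of vehicle females with vehicle males, and the interaction of both cannot be told apart from differences between the blocks. Ages, the promoter that drives the deletion and whether each library is a separate animal are not given in the labels, so the spread behind the p-values is that between libraries and may be technical.

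In glycolysis, hexokinases trap glucose inside the cell, phosphofructokinase is the main point of control, and the lower enzymes yield ATP and pyruvate. The heart mostly burns fatty acids and lactate, and it keeps a glycogen store that it builds through glycogen synthase and branching enzyme and opens through glycogen phosphorylase. BMAL1 is a transcription factor of the circadian clock that binds E-box sequences, and several genes of glucose handling are known to follow the time of day in the heart.

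Libraries held 8944955 to 20596194 counts, with the vehicle males lowest (8944955 to 15588379). Arntl had 2.79 to 29.3 CPM (counts per 1e+06 counts of the library, scaled by the trimmed mean of M-values) in tamoxifen females against 1.01 to 55.7 CPM in vehicle females, and 1.31 to 32.4 CPM in tamoxifen males against 1.31 to 44.6 CPM in vehicle males. Its fitted 24 h swing was 3.33-fold in tamoxifen females against 27.2-fold in vehicle females (adjusted p for the change of rhythm 1.19e-05), and 3.35-fold in tamoxifen males against 17.1-fold in vehicle males (6.30e-04). Counts of a whole gene cannot show whether an exon was deleted. Cardiomyocyte markers were abundant in all groups (8 markers, summed medians of 42100, 39880, 41200 and 40720 CPM in tamoxifen females, vehicle females, tamoxifen males and vehicle males), whereas skeletal muscle markers summed to at most 9.47 CPM, with Myh4 at 2 counts over all libraries. In 10 vehicle male libraries the share of counts on the annotation class TEC, provisional transcripts without experimental evidence, lay above the highest share in the other groups (0.111%), reaching 0.190%. These 10 came from clock hours 2 (1 library), 6 (3), 10 (3), 14 (2) and 18 (1), so their removal leaves 14 libraries and a single library at hours 6 and 10. Many results that involve vehicle males differ without them and are given both ways. Before scaling, 13 libraries had over 20 CPM of the atrial gene Myl7 and 5 tamoxifen libraries had under 6 CPM of Arntl. The female label of 1 tamoxifen library, at ct 54, goes against its counts, with 0.272 CPM of Xist (194.1 to 409.7 CPM in the other 23 tamoxifen females) and 11.3 CPM of the Y-linked gene Ddx3y (at most 0.117 CPM in the others). Tamoxifen males had 121.7 to 199.2 CPM of Ddx3y, far above this library. The library was kept under its label, and it also had 724 CPM of Myl7. Without it Aldoa was called in females too (0.13; adjusted p = 0.0414), and no other call of a tamoxifen or sex difference in mean level was gained or lost.

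Per kilobase of exon, the most abundant members over all groups were Ldhb, the heart subunit of lactate dehydrogenase, at 906 CPM per kb, followed by Aldoa at 719 and Eno3 at 706 CPM per kb, the muscle forms of aldolase and enolase. The muscle isoforms Pgam2 (557 CPM per kb) and Pfkm (345 CPM per kb) stood far above the ubiquitous or platelet isoforms Pgam1 (26.1 CPM per kb) and Pfkp (6.74 CPM per kb). Length is here the union of all annotated exons of a gene, 13.4 kb for Pfkp and 3.34 kb for Pfkm. This widens their gap per kb, and in vehicle females they averaged 65.7 and 1187 CPM. The scarcest members were Slc2a1 (5.23 CPM per kb), Pfkfb1 (5.21 CPM per kb) and Pfkfb3 (2.20 CPM per kb). Pfkfb1 and Pfkfb3 are bifunctional enzymes that set the level of an activator of phosphofructokinase.

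In female hearts, 12 of 34 members were higher after tamoxifen than with vehicle, as a mean over the day, and 5 were lower, with a median log2 change of 0.02 over the members and 0.0056 over all genes. A member is counted as changed where edgeR's quasi-likelihood test gave a Benjamini-Hochberg adjusted p under 0.05 over all tested genes, and 27.5% of all genes met that rule in this comparison, 15.2% higher and 12.3% lower. By role, 3 of 9 members of upper glycolysis, 5 of 7 of lower glycolysis, 1 of 5 of lactate and pyruvate handling and 3 of 6 of glycogen breakdown and the phosphatase subunits rose, and none of the 4 glycogen synthesis genes passed the test. In bulk tissue, fewer cells of a type and less RNA per cell cannot be told apart. Of 8 macrophage markers 6 fell in tamoxifen females (summed level 127 to 283 CPM against 183 to 304 CPM in vehicle females) and of 8 fibroblast markers 5 rose (1078 to 2090 CPM against 1110 to 1870 CPM). Of 4 tested atrial markers 2 fell (45.2 to 3826 CPM against 56.5 to 2903 CPM), and the part of these markers in the members' changes was not tested.

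The largest change among the members, in either sex, was in Pfkp, the platelet isoform of phosphofructokinase (chr13:6579768-6648777, minus strand, GRCm38). Its lowest, median and highest levels were 78.6, 126 and 151 CPM in tamoxifen females, against 56.4, 66.7 and 81.7 CPM in vehicle females. In males they were 71.5, 106 and 146 CPM after tamoxifen, against 50.04, 65.2 and 85.9 CPM with vehicle. Of the 24 tamoxifen libraries of each sex, 23 in females and 21 in males lay above every vehicle library. Pfkp was 1.88-fold higher in tamoxifen than in vehicle females (log2 change 0.91 ± 0.06, SE; adjusted p = 9.62e-25, edgeR quasi-likelihood test) and 1.62-fold higher in tamoxifen than in vehicle males (0.70 ± 0.06; 1.78e-18), at 12 of 12 times in each sex. Without the 10 vehicle males of high TEC share the male log2 change was 0.66 (adjusted p = 3.88e-11). Exons of Pitrm1 overlap 5.58% of those of Pfkp, and the strand setting of the counting is not given.

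**Figure D1:**
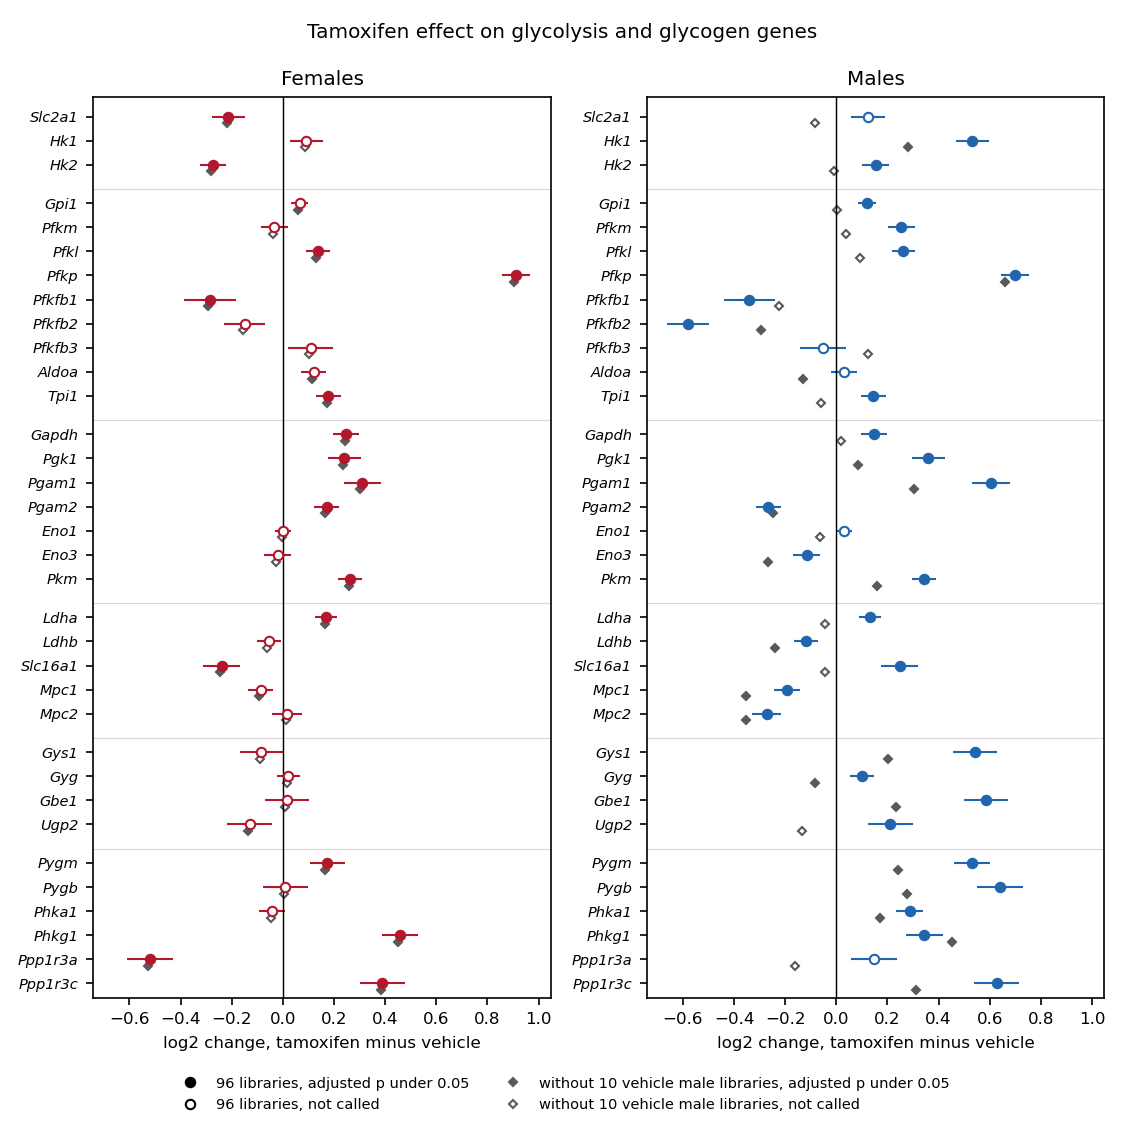
Log2 change of each of the 34 members with tamoxifen (horizontal axis, mean over the day, bars ± SE) in females and males, with members down the page by role; diamonds give the same change without the 10 vehicle male libraries of high TEC share, and filled symbols mark an adjusted p under 0.05. Pfkp lies furthest to the right in both panels (0.91 in females and 0.70 in males), and the diamonds lie apart from the circles mainly in males.

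Glucose entry went the other way in females. Hk2, the insulin-responsive hexokinase of muscle, had 327 to 517.5 CPM (median 412.3) in tamoxifen females, against 362 to 589.3 CPM (median 492) in vehicle females, with 23 of 24 tamoxifen libraries below the vehicle median. Its log2 change was -0.27 ± 0.05 (adjusted p = 1.74e-05). Slc2a1, the basal glucose transporter GLUT1, also fell (-0.21 ± 0.06; adjusted p = 0.00839), and Hk1, the ubiquitous hexokinase, had 0.09 ± 0.07 and did not pass. In upper glycolysis Pfkl, the liver phosphofructokinase, and Tpi1, triose phosphate isomerase, rose by 0.14 ± 0.05 (adjusted p = 0.0157) and 0.18 ± 0.05 (0.00426). Pfkfb1 fell (-0.29 ± 0.10; 0.0271), whereas Pfkm, the main muscle isoform, stood at -0.03 ± 0.05 and Aldoa at 0.12 ± 0.05, neither past the test. Gpi1 (0.07 ± 0.03), Pfkfb2 (-0.15 ± 0.08) and Pfkfb3 (0.11 ± 0.09) did not pass either.

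Among the lower enzymes, Pgk1, which carries the first step that yields ATP, had 415 to 562.5 CPM (median 501) in tamoxifen females, against 372 to 476 CPM (median 422.5) in vehicle females. Pkm, pyruvate kinase, had 906 to 1244 CPM (median 1153) in tamoxifen females, against 820.3 to 1066 CPM (median 962) in vehicle females. For these genes 20 and 21 of the 24 tamoxifen libraries lay above every vehicle library. Pkm rose by 0.26 ± 0.05 (adjusted p = 2.70e-06, 11 of 12 times), Pgk1 by 0.24 ± 0.07 (0.00292, 12 of 12 times) and Gapdh by 0.25 ± 0.05 (6.17e-05). The counts of 77 near-identical copies of Gapdh sum to 77.1% of its own, so its level is uncertain, and 15.3% of the exons of Pkm overlap a provisional transcript. The mutases Pgam1 (0.31 ± 0.07; 4.99e-04) and Pgam2 (0.17 ± 0.05; 0.00461) rose too, and the enolases did not pass (Eno1 0.0013 ± 0.03, Eno3 -0.02 ± 0.05). Ldha, the muscle subunit of lactate dehydrogenase, rose by 0.17 ± 0.04 (0.00138, 12 of 12 times), and Slc16a1, the lactate carrier MCT1, changed by -0.24 ± 0.07 (0.00744), a fall at 11 of 12 times. Ldhb (-0.06 ± 0.05), Mpc1 (-0.09 ± 0.05) and Mpc2 (0.02 ± 0.06) did not pass.

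Among the 6 genes of glycogen breakdown and the phosphatase subunits, Ppp1r3a, Phkg1 and Ppp1r3c had the largest changes. Phkg1, the catalytic subunit of muscle phosphorylase kinase (chr5:129863421-129898549, minus strand), had 34.9, 70.4 and 101 CPM (lowest, median, highest) in tamoxifen females, against 38.9, 51.6 and 75.7 CPM in vehicle females. It rose 1.37-fold (log2 change 0.46 ± 0.07; adjusted p = 2.35e-07), and 22 of 24 tamoxifen libraries lay above the vehicle median. Of its exons 9.68% overlap Sumf2.

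Ppp1r3c and Ppp1r3a, both of which tether protein phosphatase to glycogen and so favour glycogen synthase in its active form, moved in opposite directions in females. Ppp1r3c (chr19:36731731-36736653, minus strand) had 164, 238 and 359 CPM in tamoxifen females, against 114, 189 and 261 CPM in vehicle females, a rise of 0.39 ± 0.09 at 12 of 12 times (adjusted p = 2.83e-04). Ppp1r3a, the muscle form (chr6:14713977-14755274, minus strand), had 117, 174 and 239 CPM in tamoxifen females, against 175, 244 and 350.3 CPM in vehicle females. All 24 tamoxifen libraries were below the vehicle median and 13 were below every vehicle library, with a log2 change of -0.52 ± 0.09 (0.70-fold; adjusted p = 2.49e-06). Pygm, the muscle phosphorylase, had 0.17 ± 0.07 at adjusted p = 0.0491, a call that held in 7 of 26 alternative analyses, and Pygb and Phka1 did not pass (0.01 ± 0.09 and -0.04 ± 0.05). The glycogen synthesis genes Gys1 (-0.08 ± 0.08), Gyg (0.02 ± 0.05), Gbe1 (0.02 ± 0.09) and Ugp2 (-0.13 ± 0.09) did not pass.

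**Figure D2:**
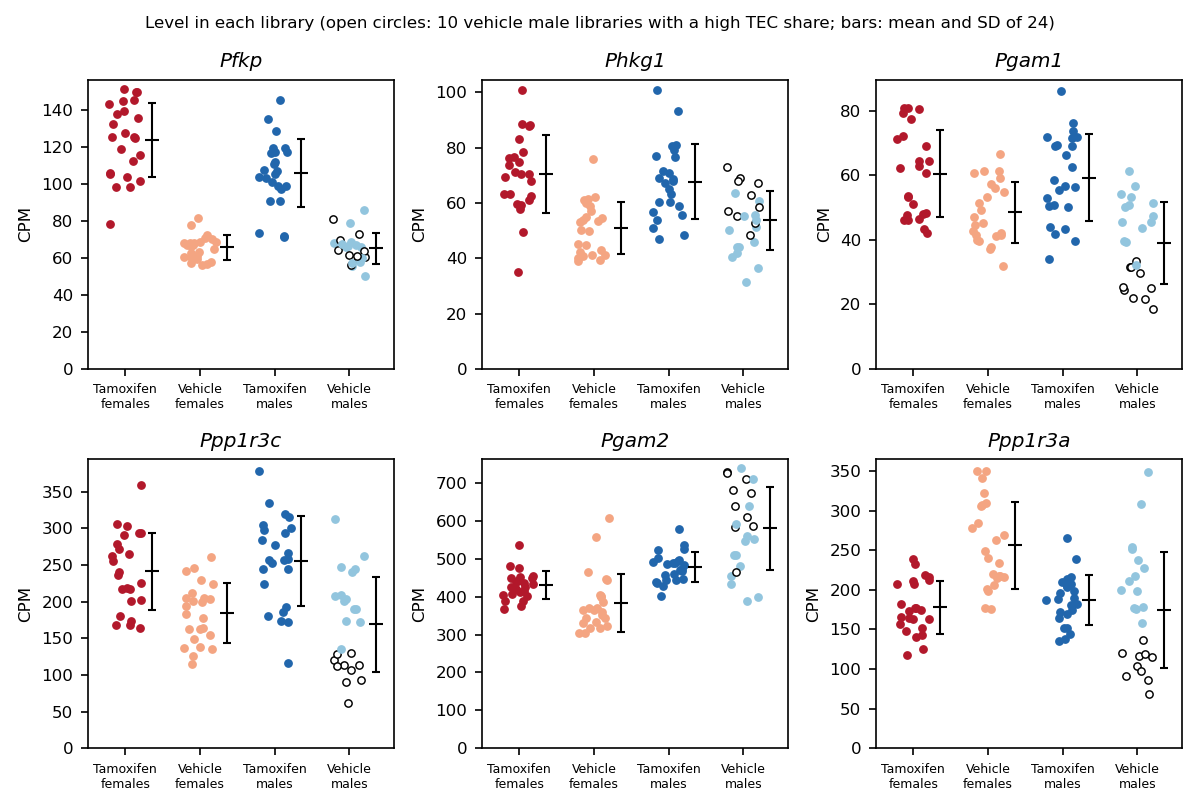
Level (CPM, linear axis from 0) of 6 members in each library of tamoxifen females, vehicle females, tamoxifen males and vehicle males; each point is a library, bars are the mean ± SD of 24, and open circles are the 10 vehicle male libraries of high TEC share. Pfkp is near 66 CPM in both vehicle groups and at 124 and 106 CPM on average after tamoxifen in females and males, and the open circles hold the lowest values of Pgam1, Ppp1r3c and Ppp1r3a in vehicle males.

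In male hearts 22 members rose and 7 fell with tamoxifen, 29 of 34, beside 70% of all genes called in that comparison (32.2% higher and 37.8% lower). The median log2 change was 0.15 over the members and -0.05 over all genes. Those that rose included 4 of 4 genes for glycogen synthesis and 5 of 6 for glycogen breakdown and the glycogen-bound phosphatase subunits. Without the 10 vehicle males of high TEC share, 20 members were called, 12 higher and 8 lower, with a median of -0.0043, beside 42.2% of all genes (22% higher and 20.2% lower). Of the 29 members, 18 were called in the same direction both ways. All 8 endothelial markers fell in tamoxifen males (summed level 837 to 1301 CPM against 963 to 2069 CPM in vehicle males), and 1 of 8 did without those libraries. Of 8 macrophage markers 5 were lower with all libraries and 5 without the 10 (168 to 306 CPM against 198 to 412.1 CPM in vehicle males), and both tested neutrophil markers, of 5 listed, were lower each way (0.311 to 4.60 CPM against 0.640 to 56.6 CPM). Of 8 cardiomyocyte markers 4 were lower and 4 higher with all libraries, and 4 were lower and 1 higher without the 10 (35720 to 50050 CPM against 28270 to 45330 CPM). The share of mitochondrial counts was 6.29 to 8.59% in tamoxifen males, against 7.38 to 10.5% in vehicle males. The part of these in the members' changes was not tested.

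Of the 9 glycogen genes that rose in males, 8 had a smaller or negative change without those libraries, and Phkg1 a larger one. Gys1, muscle glycogen synthase (chr7:45434844-45456619, plus strand), had 103, 136 and 176 CPM (lowest, median, highest) in tamoxifen males, against 35.1, 93.2 and 153 CPM in vehicle males. Within vehicle males the 10 libraries of high TEC share had 35.1 to 71.9 CPM and the other 14 had 90.9 to 153 CPM, with no overlap. Its log2 change was 0.54 ± 0.08 with all libraries (adjusted p = 4.06e-08) and 0.20 ± 0.07 without the 10 (0.0174). Gbe1, the branching enzyme, changed by 0.58 ± 0.09 (8.47e-09) and 0.23 ± 0.06 (5.40e-04). Pygb, the brain form of phosphorylase (chr2:150786735-150831758, plus strand), had 735 to 1309 CPM (median 966) in tamoxifen males, against 199 to 1028 CPM (median 644) in vehicle males, and its change of 0.64 ± 0.09 (2.00e-09) was 0.28 ± 0.06 without the 10 (3.77e-05). Pygm moved by 0.53 ± 0.07 (1.83e-10) and by 0.24 ± 0.05 (1.96e-05). Ugp2, which makes the UDP-glucose used for glycogen, had 0.21 ± 0.09 (0.0293) with all libraries and -0.14 ± 0.06 without the 10, which did not pass (0.0784). Gyg, the glycogenin primer of new glycogen, had 0.10 ± 0.05 (0.0444) with all libraries and was called in the opposite direction without the 10 (-0.08 ± 0.03; 0.0301).

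The calls of Phkg1, Ppp1r3c and Phka1 were kept without those libraries. Phkg1 had 47.0, 67.7 and 101 CPM in tamoxifen males, against 31.4, 54.5 and 73.0 CPM in vehicle males, with a log2 change of 0.34 ± 0.07 (adjusted p = 1.91e-05) that was 0.45 ± 0.09 without the 10 (5.38e-05). Ppp1r3c had 116, 258 and 378 CPM in tamoxifen males, against 62.5, 173 and 312 CPM in vehicle males, with 0.63 ± 0.09 (1.84e-09) and 0.31 ± 0.09 (0.00434). Its 10 vehicle male libraries of high TEC share had 62.5 to 129.8 CPM and the other 14 had 135.7 to 312 CPM, with no overlap. Phka1, the muscle regulatory subunit of phosphorylase kinase, rose by 0.29 ± 0.05 (8.56e-07) and 0.17 ± 0.06 (0.0129). Ppp1r3a did not pass in males either way (0.15 ± 0.09 and -0.16 ± 0.08).

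In male glycolysis, Hk1 rose by 0.53 ± 0.07 (adjusted p = 3.25e-11), and by 0.28 ± 0.06 without the 10 libraries (1.02e-04). Its levels were 162, 222 and 275 CPM in tamoxifen males, against 83.2, 146 and 210.0 CPM in vehicle males, and all 24 tamoxifen libraries lay above the vehicle median. Pgam1, the ubiquitous mutase (chr19:41911923-41918660, plus strand), had 33.9, 57.5 and 86.1 CPM in tamoxifen males, against 18.4, 39.3 and 61.2 CPM in vehicle males, with changes of 0.60 ± 0.07 (1.93e-11) and 0.30 ± 0.07 (2.46e-04). Pkm changed by 0.34 ± 0.05 (4.53e-10) and 0.16 ± 0.03 (1.12e-04), and Pgk1 by 0.36 ± 0.07 (1.23e-06) and 0.09 ± 0.03 (0.0382). Pfkm rose with all libraries (0.25 ± 0.05; 2.11e-05) but had 0.04 ± 0.03 without the 10 (0.403), as its vehicle male libraries of high TEC share lay at 545 to 980 CPM and the others at 1078 to 1297 CPM. Gpi1, Pfkl, Tpi1, Gapdh, Ldha and Slc16a1 also lost their calls without the 10, and so did Hk2, whose change was then -0.01 ± 0.06. Slc2a1 (0.12 ± 0.07), Pfkfb3 (-0.05 ± 0.09), Aldoa (0.03 ± 0.05) and Eno1 (0.03 ± 0.03) did not pass with all libraries, and Aldoa was lower without the 10 (-0.13 ± 0.04; 0.00845).

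The members that fell in males were fewer. Pgam2, the muscle mutase (chr11:5801640-5803733, minus strand), had 401, 477 and 579 CPM in tamoxifen males, against 388, 585 and 739.8 CPM in vehicle males, and all 24 tamoxifen libraries lay below the vehicle median. Its log2 change was -0.27 ± 0.05 (adjusted p = 1.68e-06) and -0.25 ± 0.06 without the 10 libraries (5.76e-04). Pfkfb2, the heart form of the bifunctional enzyme, had -0.58 ± 0.08 (1.51e-09) and -0.30 ± 0.09 (0.00391), and 17.4% of its exons overlap Gm29427. Both subunits of the mitochondrial pyruvate carrier fell, with -0.27 ± 0.06 for Mpc2 (2.08e-05) and -0.19 ± 0.05 for Mpc1 (5.07e-04), and both had -0.35 without the 10. Mpc1 is uncertain, as a near-identical copy holds 57.1% as many counts. Ldhb and Eno3 fell by 0.12 on the log2 scale with all libraries, and their values were -0.24 and -0.27 without the 10. Pfkfb1 fell as well (-0.34 ± 0.10; 0.00185), a call that was lost without the 10 (-0.22 ± 0.12; 0.142).

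Across the sexes, 11 members rose with tamoxifen in both females and males, 1 fell in both (Pfkfb1) and 3 were called in opposite directions (Hk2, Pgam2 and Slc16a1), beside 9.16%, 6.74% and 3.4% of all genes. Without the 10 libraries these counts were 7, 1 and 2, beside 8.12%, 6.4% and 2.24% of all genes. The 7 that rose were Pfkp, Pgk1, Pgam1, Pkm, Pygm, Phkg1 and Ppp1r3c, the gene that fell was Mpc1, and those called in opposite directions were Aldoa and Pgam2. In females Mpc1 and Aldoa were not called with all libraries. Pgam2 had 366, 429.4 and 536.1 CPM in tamoxifen females, against 304, 366 and 608 CPM in vehicle females, with all 24 tamoxifen libraries above the vehicle median, so it was above that median in females and below it in males.

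The difference in tamoxifen effect between the sexes was tested directly as an interaction. It was called for 17 members, 4 with a more positive change in females and 13 with a more positive change in males, beside 52.3% of all genes (27% and 25.4%). The most negative interactions were those of Ppp1r3a (-0.67 ± 0.13; adjusted p = 1.41e-05), Pygb (-0.63 ± 0.13; 3.19e-05), Gys1 (-0.63 ± 0.12; 1.42e-05) and Gbe1 (-0.57 ± 0.12; 7.56e-05), all glycogen genes. Without the 10 libraries they were -0.37 ± 0.11 (0.00842), -0.27 ± 0.07 (0.00264), -0.29 ± 0.09 (0.0110) and -0.22 ± 0.07 (0.0138). Hk2 (-0.43 ± 0.07; 2.61e-06) and Slc16a1 (-0.49 ± 0.10; 5.25e-05) stood at -0.27 ± 0.07 (0.00331) and -0.20 ± 0.07 (0.0209). Pgam2 had the highest interaction (0.44 ± 0.07; 5.77e-07) and kept 0.41 ± 0.08 (1.61e-04), and Mpc2 (0.29 ± 0.08; 0.00203) had 0.36 ± 0.09 (0.00193). Pfkp rose more in females by 0.21 ± 0.08 (0.0198), and by 0.24 ± 0.09 without the 10 (0.0334). Without the 10 libraries 19 members were called, beside 28.6% of all genes, 11 of them more positive in females (13.5% of all genes), and 11 of the 17 were among the 19 in the same direction. Of the markers, 6 of 8 endothelial, 5 of 8 fibroblast, 5 of 6 erythroid and 4 of 8 cardiomyocyte genes had a more positive change in females, and 3 cardiomyocyte genes a more negative one. Without the 10 the more positive ones were 0, 3, 0 and 5, with 1 cardiomyocyte gene more negative, and their part was not tested.

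**Figure D3:**
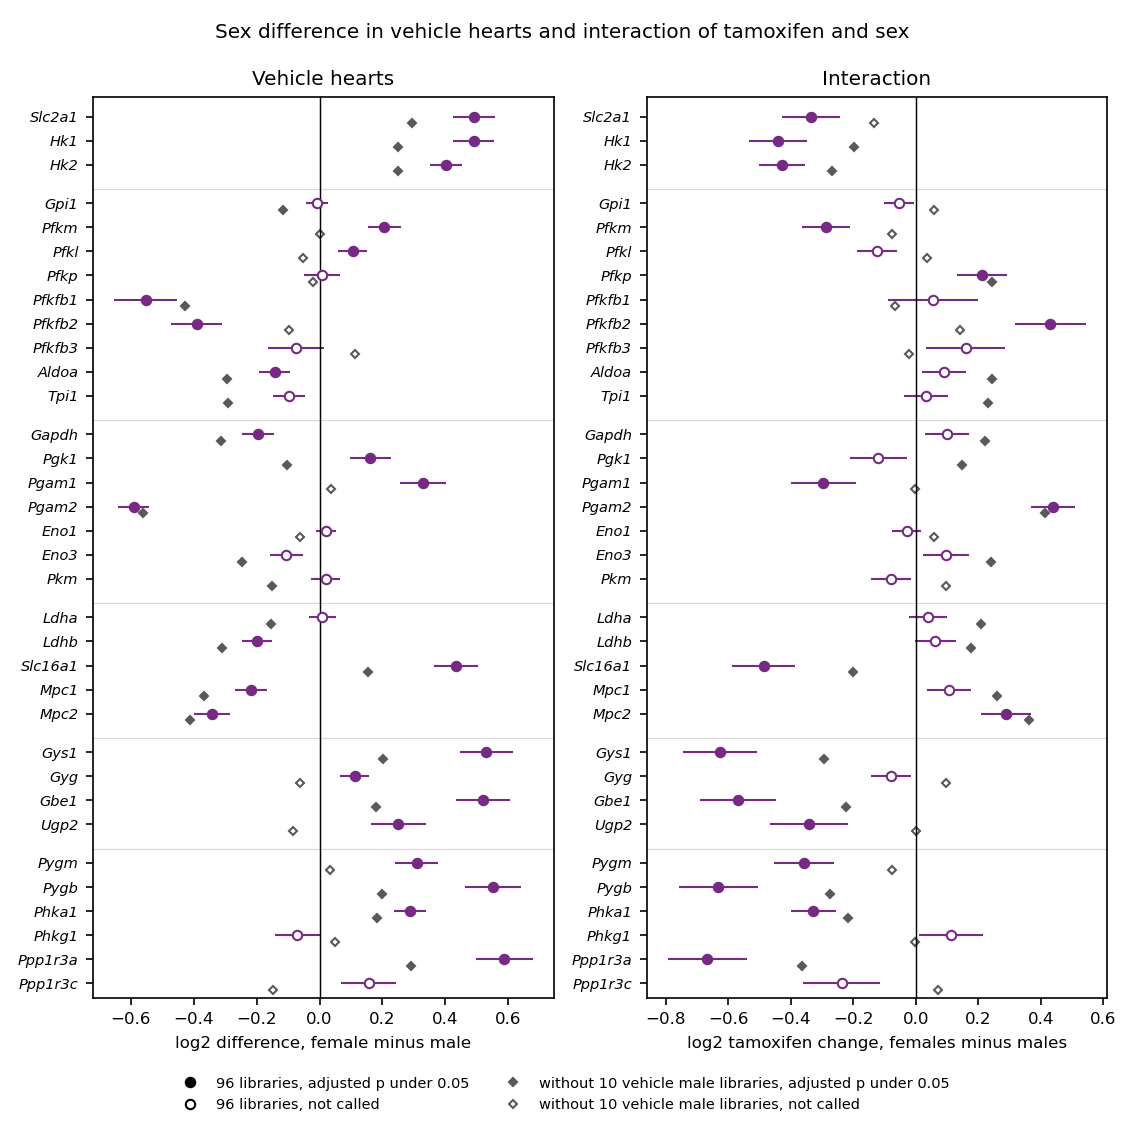
Female minus male log2 difference in vehicle hearts and the interaction (tamoxifen change in females minus that in males), with members down the page by role; circles are estimates from all 96 libraries with bars of ± SE, diamonds leave out the 10 vehicle male libraries of high TEC share, and filled symbols have an adjusted p under 0.05. Pgam2 stays at -0.59 and -0.56 in the left panel, while most glycogen genes move towards 0.

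Between the sexes after tamoxifen, 3 of 34 members differed, 1 higher and 2 lower in females, beside 7.68% of all genes (4.08% higher and 3.6% lower). Pfkp was higher in tamoxifen females than in tamoxifen males (0.22 ± 0.06; adjusted p = 0.00491), at 10 of 12 times. Pfkfb1, on the X chromosome (chrX:150588229-150643878, plus strand), had 6.003, 14.4 and 26.6 CPM in tamoxifen females, against 8.64, 19.7 and 36.6 CPM in tamoxifen males, a difference of -0.50 ± 0.10 (0.71-fold; 2.50e-04). Pgam2 was lower in tamoxifen females than in tamoxifen males (-0.15 ± 0.05; 0.0370). Of 8 fibroblast markers 5 were higher in tamoxifen females (1078 to 2090 CPM against 1030 to 1944 CPM in tamoxifen males) and of 8 endothelial markers 1 was lower (788 to 1162 CPM against 837 to 1301 CPM). In vehicle hearts 24 members differed, 16 higher and 8 lower in females, beside 68.3% of all genes (31.8% higher and 36.5% lower), and 16 of these were called in the same direction without the 10 libraries. Without them 22 members were called, beside 46.7% of all genes (24.4% higher and 22.3% lower in females). Lower in females were then 4 of 9 members of upper glycolysis and 5 of 7 of lower glycolysis. In lactate and pyruvate handling 4 of 5 were lower and 1 was higher. Higher were all 3 glucose entry genes, 2 of 4 for glycogen synthesis and 3 of 6 for glycogen breakdown and the phosphatase subunits. Cell type markers are given first with all 96 libraries. All 8 endothelial (916 to 1373 CPM against 963 to 2069 CPM in vehicle males), all 6 erythroid (309 to 1196 CPM against 436.5 to 1940 CPM), 5 of 8 macrophage (183 to 304 CPM against 198 to 412.1 CPM), 4 of 8 cardiomyocyte (33970 to 44490 CPM against 28270 to 45330 CPM) and both tested neutrophil markers were lower in vehicle females, and 3 of 4 tested atrial markers were higher (56.5 to 2903 CPM against 78.6 to 2381 CPM). Myh6 and Ryr2, of the cardiomyocyte list, averaged higher in vehicle females (18120 and 2206 CPM, against 15610 and 1453 CPM in vehicle males). So did Adgre1 and Mrc1, of the macrophage list (15.6 and 48.7 CPM, against 12.3 and 43.5 CPM). Without the 10 the markers lower in vehicle females numbered 3, 5, 5, 5 and 2 in the same order, with 1 cardiomyocyte marker higher. The part of these markers in the sex differences was not tested. Pgam2 was lower in vehicle females than in vehicle males at 12 of 12 times (-0.59 ± 0.05; 8.29e-18), with -0.56 ± 0.06 without the 10 (4.74e-12). Pfkfb1 had 11.2, 17.2 and 30.6 CPM in vehicle females, against 12.8, 27.2 and 56.2 CPM in vehicle males (-0.55 ± 0.10; 1.30e-06), and -0.43 ± 0.12 without the 10 (0.00330). Ppp1r3a was higher in vehicle females (0.59 ± 0.09; 2.61e-08), and 0.29 ± 0.09 higher without the 10 (0.00390). Slc2a1 was likewise higher (0.49 ± 0.07; 5.84e-10), with 0.29 ± 0.07 (4.05e-04).

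Rhythms were tested by fitting a 24 h cosine in each group, with an amplitude given as the log2 distance from mean to peak and a peak given as a circadian hour. Of 34 members, 7 were rhythmic in tamoxifen females (17.1% of all genes), 13 in vehicle females (34.5%), 4 in tamoxifen males (8.03%) and 19 in vehicle males (55.2%). Pfkfb1, Pfkfb3, Pgam1 and Ppp1r3c were rhythmic in all 4 groups, so these 4 held a 24 h pattern in tamoxifen hearts too. Of all genes 3.23% were rhythmic in all 4. Without the 10 vehicle males of high TEC share, Pfkfb1 alone of the members passed in all 4 (2.36% of all genes), and the counts were 13 (24.5% of all genes), 25 (43.4%), 5 (12.8%) and 4 (18.6%). Counts rose in the groups that lost no library, and all groups share an estimate of the spread per gene.

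Pfkfb1 and Pfkfb3 peaked between hours 7.8 and 11 in every group. Pfkfb2, also bifunctional, had later peaks and is given below with the rhythms called in fewer groups. Pfkfb3 (chr2:11471433-11554077, minus strand) had 27.7 to 32.4 CPM at clock hour 10 and 11.3 to 13.2 CPM at hour 22 in tamoxifen females. The same hours held 19.7 to 28.8 and 8.13 to 14.4 CPM in vehicle females. In males they held 20.9 to 33.7 and 12.1 to 15.0 CPM after tamoxifen, against 24.7 to 32.2 and 12.04 to 15.3 CPM with vehicle. The lowest library of hour 10 thus exceeded the highest of hour 22 in every group. Its fitted amplitudes were 0.62 in tamoxifen females (adjusted p = 2.40e-07), 0.53 in vehicle females (8.37e-06), 0.48 in tamoxifen males (2.52e-04) and 0.53 in vehicle males (3.03e-06), where it was 0.25 without the 10 libraries (0.266). Pfkfb1 peaked at hours 8.9, 8.8, 9.4 and 10.7 in the same order, with fold ranges of 1.96, 2.06, 1.93 and 2.16, and in vehicle males it kept an amplitude of 0.44 without the 10 (0.0393).

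Pgam1 and Ppp1r3c peaked between hours 17.2 and 22.5. Pgam1 had 79.2 to 80.8 CPM at clock hour 18 and 41.97 to 53.3 CPM at hour 10 in tamoxifen females, and 45.3 to 54.7 and 37.8 to 44.6 CPM in vehicle females. In tamoxifen males it had 71.6 to 86.1 CPM at hour 18 and 33.9 to 44.0 CPM at hour 10. Its amplitudes were 0.38 in tamoxifen females (2.15e-04), 0.31 in vehicle females (0.00275), 0.42 in tamoxifen males (1.86e-04) and 0.41 in vehicle males (3.02e-05), the last at 0.13 without the 10 libraries (0.453). Ppp1r3c had fold ranges of 1.55, 1.58, 1.58 and 2.16 in tamoxifen females, vehicle females, tamoxifen males and vehicle males, with peaks at hours 19.4, 19.2, 21.6 and 22.5. In vehicle males its amplitude of 0.56 (3.39e-06) was 0.28 without the 10 libraries (0.0798).

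**Figure D4:**
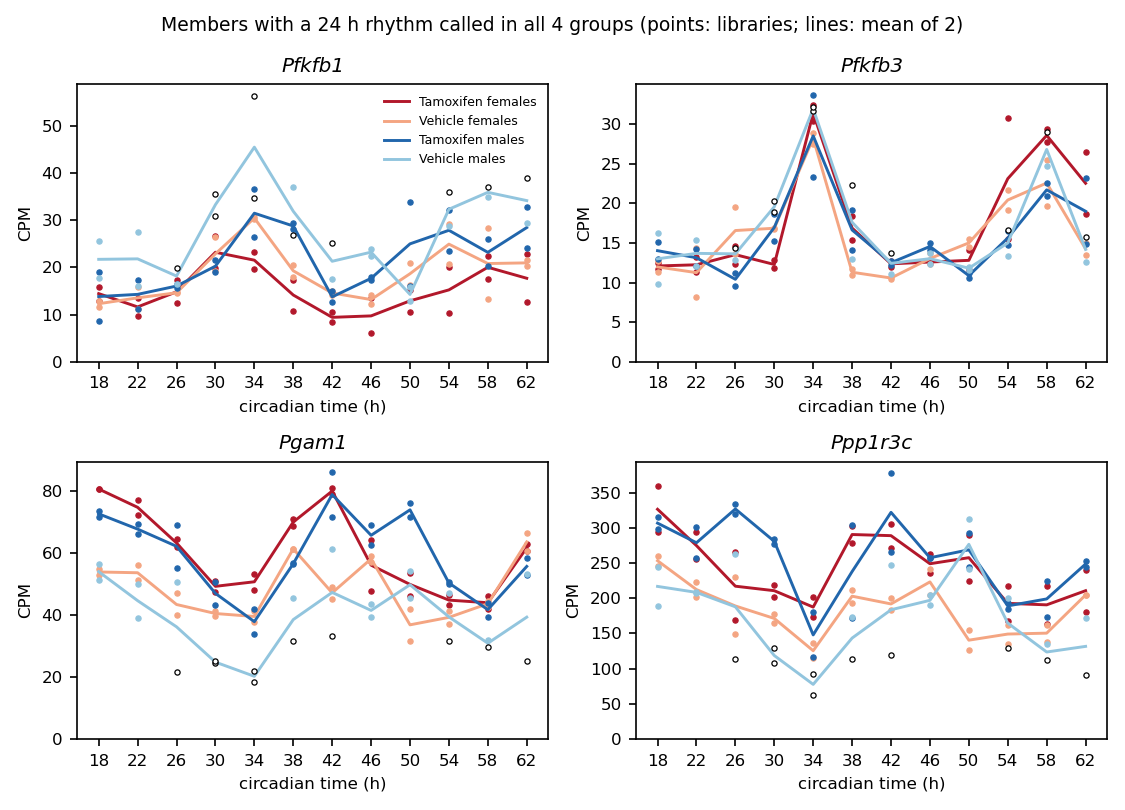
Level (CPM) against circadian time (h) for Pfkfb1, Pfkfb3, Pgam1 and Ppp1r3c; points are libraries, lines join the mean of the 2 libraries at each time, and open circles are the vehicle male libraries of high TEC share. Pfkfb3 peaks at ct 34 and ct 58 in all 4 groups.

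The promoter windows of these 4 genes are shown because their rhythm was called under both treatments and in both sexes. Each holds 300 bases, from 250 before to 50 after a RefSeq start site (GRCm38.p6), 5′ to 3′ on the gene's strand, and capitals mark the E-box CACGTG, the element that BMAL1 is known to bind. Coordinates are chrX:150587195-150587494 (plus strand, the first of 4 windows of Pfkfb1), chr2:11502041-11502340 (minus strand, the window of Pfkfb3 shown of its 2), chr19:41911621-41911920 (plus strand, Pgam1) and chr19:36736555-36736854 (minus strand, Ppp1r3c). Where a gene had several windows, the first with an E-box was shown, and otherwise the first listed.
Pfkfb1: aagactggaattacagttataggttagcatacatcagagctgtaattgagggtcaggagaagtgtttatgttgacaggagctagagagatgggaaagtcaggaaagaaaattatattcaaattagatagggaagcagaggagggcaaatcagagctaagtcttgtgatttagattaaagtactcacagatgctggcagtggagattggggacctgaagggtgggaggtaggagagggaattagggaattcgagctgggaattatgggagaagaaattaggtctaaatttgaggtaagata
Pfkfb3: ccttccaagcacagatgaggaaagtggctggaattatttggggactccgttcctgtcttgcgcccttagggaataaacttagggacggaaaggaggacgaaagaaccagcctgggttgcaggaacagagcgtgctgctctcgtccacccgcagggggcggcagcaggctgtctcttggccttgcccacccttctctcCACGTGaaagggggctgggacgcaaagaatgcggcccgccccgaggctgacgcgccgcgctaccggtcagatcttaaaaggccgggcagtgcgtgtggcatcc
Pgam1: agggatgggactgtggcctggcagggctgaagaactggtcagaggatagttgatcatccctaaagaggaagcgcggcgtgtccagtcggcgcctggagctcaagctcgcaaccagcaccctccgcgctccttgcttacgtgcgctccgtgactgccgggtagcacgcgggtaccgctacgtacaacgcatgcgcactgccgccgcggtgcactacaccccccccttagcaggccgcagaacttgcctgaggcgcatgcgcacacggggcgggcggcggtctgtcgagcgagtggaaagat
Ppp1r3c: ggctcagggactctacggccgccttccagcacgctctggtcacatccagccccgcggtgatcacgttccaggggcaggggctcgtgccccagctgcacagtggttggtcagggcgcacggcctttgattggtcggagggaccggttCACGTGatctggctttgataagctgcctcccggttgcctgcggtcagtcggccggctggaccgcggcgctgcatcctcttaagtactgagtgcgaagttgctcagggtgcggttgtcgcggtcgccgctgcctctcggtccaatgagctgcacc
Pfkfb3 and Ppp1r3c each held an E-box, 53 and 104 bases before the start, and the windows of Pfkfb1 and Pgam1 held none. The Pfkfb3 window was thus picked for its E-box, and its other window held none. The Pfkfb3 window shown lies inside the gene (chr2:11471433-11554077, minus strand), away from its annotated 5′ end. That of Pfkfb1 ends at chrX:150587494, before the annotated start of the gene at chrX:150588229. Of the 52 windows of the 34 members, 7 held CACGTG (13.5%), against 2349 of 32851 windows of all genes (7.15%), and the other 5 lay at Gyg, Ldha, Pfkfb2, Pfkm and Slc16a1. CACGTG reads the same on both strands. The D-box letters TTATGTAA or TTACGTAA, on either strand, were in 0 of the 52 windows and in 1.06% of all windows, and the core of the element bound by REV-ERB and ROR, TAGGTCA, was in 1 member window, that of Mpc1, and in 2.61% of all. A match of letters describes the window and shows no binding.

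Rhythms called in fewer groups differed between the sexes with vehicle. In vehicle females Pgam2, Eno3, Ldha, Slc16a1, Mpc1 and Mpc2 were rhythmic, with amplitudes of 0.13 to 0.25 and peaks between hours 15.0 and 16.4, and Ppp1r3a peaked at 14.7 (0.29). Hk2 (0.16, hour 9.5) and Pfkfb2 (0.33, hour 17.6) were also rhythmic there. Several of these rested on the libraries of ct 42, where Pgam2 averaged 582.3 CPM and Mpc2 383.4 CPM, against 358.1 and 249.5 CPM at ct 18, the same clock hour. Without ct 42 the calls of Pgam2 (0.13; adjusted p = 0.0642), Eno3 (0.14; 0.0981), Ldha (0.10; 0.231), Mpc2 (0.16; 0.0776) and Hk2 (0.12; 0.137) were lost, which left 8 members rhythmic in vehicle females (23.8% of all genes). Both vehicle female libraries of ct 42 also had the highest endothelial sums of their group (1373 and 1353 CPM, against 916 to 1194 CPM in the others), and the part of this was not tested. In tamoxifen females the calls beyond the 4 common ones were Pfkp (0.19, hour 19.3; 0.18 at adjusted p = 0.0558 without the library whose female label goes against its counts), Pfkfb2 (0.28, hour 18.7) and Phkg1 (0.29, hour 9.5). In vehicle males 3 of 4 glycogen synthesis genes and 6 of 6 genes of glycogen breakdown and the phosphatase subunits were rhythmic, beside the 55.2% of all genes, and without the 10 libraries 0 of 4 and 2 of 6, beside 18.6%. Gys1 (0.45), Gbe1 (0.45), Ugp2 (0.35), Pygm (0.33), Pygb (0.49) and Ppp1r3a (0.54) peaked between hours 20.3 and 22.2, Phka1 (0.20) at 19.2 and Phkg1 (0.24) at 11.7. Of the 19 members rhythmic in vehicle males, 4 were called without the 10 libraries: Pfkfb1, Pgam2, Pygb (0.23; adjusted p = 0.0236) and Ppp1r3a (0.34; 0.0291). Pgam2 peaked at hour 16.2 in vehicle females (0.23; 7.06e-04) and at hour 10.5 in vehicle males (0.28; 8.53e-06). In tamoxifen males it had 428 to 502.3 CPM at hour 10 and 446.6 to 535.1 CPM at hour 22, against 639 to 728 CPM and 388 to 553 CPM in vehicle males.

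**Figure D5:**
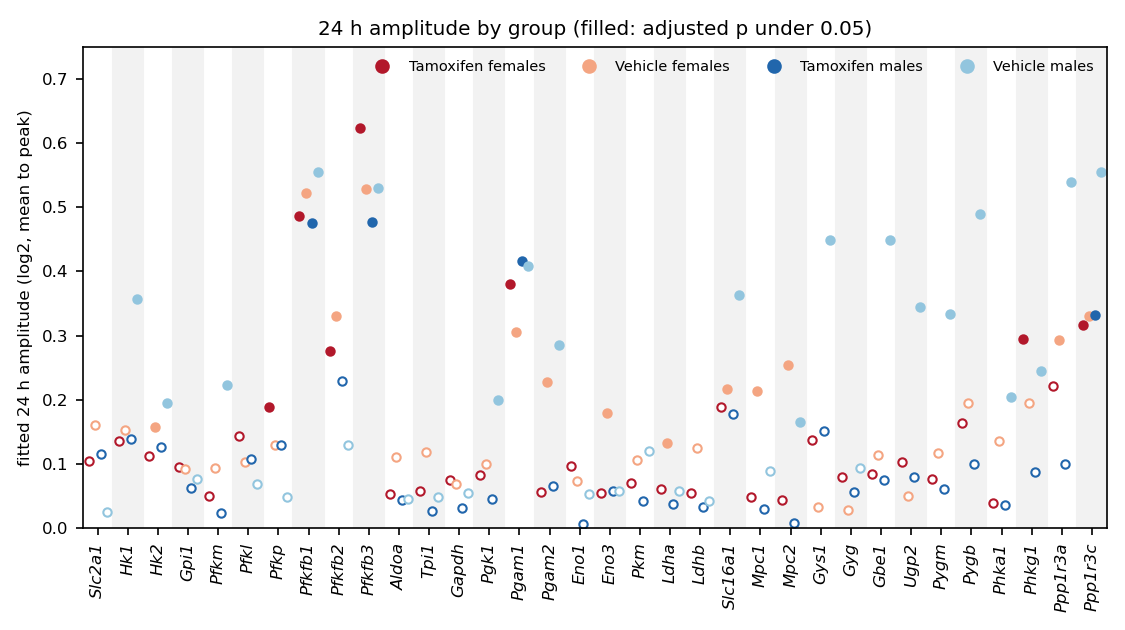
Fitted 24 h amplitude (log2, mean to peak) of each member in tamoxifen females, vehicle females, tamoxifen males and vehicle males; filled points have an adjusted p under 0.05. Points of all 4 groups are filled for Pfkfb1, Pfkfb3, Pgam1 and Ppp1r3c, and Gys1, Gbe1, Ugp2, Pygm, Pygb and Ppp1r3a have their highest points in vehicle males.

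A change of rhythm with tamoxifen was called for 0 members in females by edgeR (0.237% of all genes), with 8 members at an unadjusted p under 0.05, and for 4 in males (20.7% of all genes). The male changes, as the distance between the fitted rhythms, were 0.35 ± 0.07 for Pgam2 (adjusted p = 0.00149), 0.55 ± 0.13 for Pygb (0.00479), 0.48 ± 0.13 for Ppp1r3a (0.0152) and 0.45 ± 0.12 for Gbe1 (0.0176). Without the 10 libraries Pgam2 (0.32; 0.0492) and Pygb (0.31; 0.0378) were called in males and Hk1 in females (0.28; 0.0387), beside 2.56% and 1.51% of all genes. Rhythms of tamoxifen females and males differed for 0 members by edgeR (0.0384% of all genes; 0 members at an unadjusted p under 0.05). Those of vehicle females and males differed for 17 (37.4% of all genes). Without the 10 they differed for 9, 8 of them among the 17, beside 16.9% of all genes.

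Beyond the 34 members, 59 other genes of glucose handling were listed by role, of which 52 were tested. In females 3 of 17 other glycolysis genes rose and 6 fell, 3 of 19 other glycogen genes rose and 3 fell, and 2 of 16 genes of the pentose phosphate, hexosamine and polyol branches rose and 2 fell. Of all genes 15.2% rose and 12.3% fell in females. In males the counts were 5 and 8, 13 and 4, and 8 and 4, beside 32.2% of all genes higher and 37.8% lower. Without the 10 libraries they were 1 and 6, 10 and 1, and 4 and 4, beside 22% higher and 20.2% lower. Slc16a7, the monocarboxylate carrier MCT2, had 5.92, 10.3 and 16.4 CPM in tamoxifen females, against 17.4, 26.5 and 33.04 CPM in vehicle females, with no overlap (log2 change -1.33 ± 0.09; adjusted p = 7.94e-22). Pygl, the liver phosphorylase, rose by 0.75 ± 0.07 in females (1.95e-14). Ppp1r3g, another glycogen-targeting subunit, was called in both sexes at under 2 CPM in every library (-1.49 ± 0.26 and -0.89 ± 0.27). In males Phkb, the beta subunit of phosphorylase kinase, rose by 0.68 ± 0.06 (1.60e-16), and by 0.47 ± 0.06 without the 10 (7.82e-10). Eno2 and Slc2a3, the neuronal enolase and glucose transporter, changed by -0.92 ± 0.16 and -0.69 ± 0.16, and by -0.41 ± 0.16 (0.0267) and -0.26 ± 0.15 (0.165) without them.

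Among these other genes, those rhythmic in vehicle females included Ppp1r3b, which tethers phosphatase to glycogen (amplitude 0.57, peak at hour 15.7), Pfkfb4 (0.42, hour 4.9), Ppp1r3f (0.41, hour 6.2) and Gfpt2 (0.31, hour 21.7). Ppp1r3f rested on few counts, with 0.717 to 2.17 CPM in vehicle females. In vehicle males they included Ppp1r3b (0.68, hour 17.3), Tkt, transketolase (0.50, hour 10), Slc2a3 (0.50, hour 9.1) and Pgm5 (0.43, hour 22.6). Without the 10 libraries Ppp1r3b and Pgm5 were still rhythmic in vehicle males (0.49 and 0.26), and Tkt (0.29; adjusted p = 0.0636) and Slc2a3 (0.23; 0.492) were not called.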

How the data were processed

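The authors deposited a table of raw counts per gene for 96 libraries, not normalized. Per the labels, poly-A RNA from ventricle was extracted with RNeasy and sequenced as Illumina mRNA Prep libraries, and the submitters' processing notes name HISAT2, Picard, HTSeq, GRCm38 and mm10 (tool versions not given in the sources used here). Isoforms of a gene are counted together. Each of the 96 columns was matched to a library by its title. Coordinates are from GENCODE M21 (GRCm38). Counts were fitted with edgeR 4.0.16 (R 4.3.3; TMM scaling, filterByExpr with a minimum count of 10) in 1 quasi-likelihood model of all libraries, which gives each group its own mean level and 24 h cosine and sine terms (84 residual degrees of freedom), and p-values were Benjamini-Hochberg adjusted over 15629 genes with a threshold of 0.05. Errors of log2 values are SE. On data simulated for the female comparison (15629 genes), 22% of changes of 0.20 log2 and 84% of 0.32 log2 were called; for rhythms of vehicle females, 8% of amplitudes of 0.2 and 58% of 0.3. The simulation changed 50 genes at each size, a far smaller share than the 27.5% of genes called in the female data. It took the spread of each gene from the trend with level, so these rates may not carry over to the data. DESeq2 1.42.0 was an alternative. The 2 libraries of a group and time differed beyond sampling noise in all 48 pairs (chi-square per gene 3.86 to 99.6), so none was counted as a duplicate. All 34 members were named by rule; other pathway genes were named from the 5 strongest called changes or vehicle rhythms, some of which are not reported here, although the counts of those lists include them. Members and lists were chosen with earlier results of these data known.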

Additional observations from a re-analysis of the deposited data

Results flagged for a closer look

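The tamoxifen effect differed between the sexes, by the interaction test (edgeR quasi-likelihood, adjusted p under 0.05), for 17 members. The values are log2 changes in females minus those in males. They were higher in females for Pgam2 (0.44), Pfkfb2 (0.43), Mpc2 (0.29) and Pfkp (0.21). They were lower in females for Ppp1r3a (-0.67), Pygb (-0.63), Gys1 (-0.63), Gbe1 (-0.57), Slc16a1 (-0.49), Hk1 (-0.44), Hk2 (-0.43), Pygm (-0.36), Ugp2 (-0.34), Slc2a1 (-0.34), Phka1 (-0.33), Pgam1 (-0.30) and Pfkm (-0.29). The call was lost for Slc2a1, Pfkm, Pfkfb2, Pgam1, Ugp2 and Pygm without the 10 vehicle males of high TEC share.

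The 24 h rhythm differed between vehicle females and vehicle males for 17 members, with distances between the fitted rhythms (log2) of 0.68 for Pygb, 0.59 for Ppp1r3a, 0.56 for Gbe1, 0.48 for Gys1, 0.44 for Pygm, 0.43 for Ppp1r3c, 0.38 for Hk1, 0.38 for Pfkfb2, 0.35 for Hk2, 0.35 for Pgam2, 0.35 for Slc16a1, 0.34 for Phka1, 0.32 for Pgam1, 0.31 for Pfkm, 0.30 for Mpc2, 0.28 for Pgk1 and 0.21 for Pkm. Without the same 10 libraries the difference was called for 8 of these, beside 16.9% of all genes: Pfkm, Pgk1, Pgam2, Mpc2, Gbe1, Pygm, Pygb and Phka1.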

How the results depend on the processing

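No paired analysis was possible because the numbers in the library titles are not shared between groups. The part of the separate number blocks of vehicle males, vehicle females and tamoxifen libraries in the results was not tested. Leaving out the 10 vehicle males of high TEC share left 6 members called between the sexes after tamoxifen, rhythms in 13 of tamoxifen females, 25 of vehicle females and 4 of vehicle males, rhythm changes in 1 (females) and 2 (males), and a rhythm difference of vehicle hearts in 9. Without the high-Myl7 libraries rhythm changes were called for 2 members in each sex. Without all libraries that stand apart, a choice made after seeing the data as was the count of 9, rhythms were called in 12 (tamoxifen females), 26 (vehicle females) and 3 (vehicle males), rhythm changes in 10 in females, and a vehicle rhythm difference in 5. The first 24 h alone gave 1 sex difference after tamoxifen. The second gave 10 female tamoxifen calls, 1 sex difference after tamoxifen and 11 interactions. The tamoxifen libraries in the upper range of title numbers gave 8 female calls and 0 sex differences after tamoxifen (edgeR), and those in the lower range gave 13 and 2. The upper range held fewer tamoxifen females than the lower, whereas tamoxifen males were split evenly, so these counts come from unequal numbers of libraries. The labels do not say what the numbers stand for. With no filter on low counts 8 rhythms were called in vehicle females, and with a length and GC correction 7 rhythm changes in males. Leaving out each of the 12 times gave 14 to 17 female and 25 to 30 male tamoxifen calls, 1 to 4 and 21 to 25 sex differences with tamoxifen and vehicle, 16 to 18 interactions, rhythms in 4 to 9 (tamoxifen females), 8 to 14 (vehicle females), 3 to 5 (tamoxifen males) and 16 to 22 (vehicle males), rhythm changes in 0 (females) and 3 to 10 (males), and rhythm differences in 0 (tamoxifen) and 12 to 21 (vehicle). The count moved by over 1.5 times without ct 38 for the sex difference after tamoxifen (1), without ct 58 for rhythms of tamoxifen females (4), without ct 42 or ct 50 for those of vehicle females (8 each), and without ct 26, 42, 54 or 58 for rhythm changes in males (8, 9, 10 and 7). With library size alone as the scaling, 22 members were called in males (15 higher) while the median of all genes stood at -0.14, and DESeq2 called 16 members in females and 28 in males. The cause of these differences was not tested.

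Where a change was called with all libraries or under the alternative, signs turned as follows (log2). Male tamoxifen changes without the 10 high-TEC libraries were Hk2 -0.011, Aldoa -0.13, Tpi1 -0.058, Ldha -0.043, Slc16a1 -0.043, Gyg -0.082 and Ugp2 -0.14. Without all libraries that stand apart they were Hk2 -0.015, Gpi1 -0.034, Aldoa -0.18, Tpi1 -0.10, Gapdh -0.031, Eno1 -0.10, Ldha -0.081, Slc16a1 -0.053, Gyg -0.080 and Ugp2 -0.12. Vehicle sex differences without the 10 were Pfkl -0.053, Pgk1 -0.10, Pkm -0.15, Ldha -0.16, Gyg -0.061 and Ugp2 -0.085. Without all libraries that stand apart they were Pfkl -0.071, Pgk1 -0.10, Pkm -0.15, Ldha -0.15, Gyg -0.050 and Ugp2 -0.064. Interactions turned for Pgk1 (0.15 and 0.17 without the 10 and without all), Ugp2 (0.0001 without the 10) and Pkm (0.12 without all). Pfkp in vehicle hearts had -0.15 with the length and GC correction, and Gyg had -0.0056 in the second 24 h. In simulated female data 22% of changes of 0.20 log2 were called, and depth, spread and the share of changed genes were not varied.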
